A study of Homo sapiens with 6 samples.

Results

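The genes described here are the heat shock proteins and chaperones measured in U373MG glioblastoma cells. They were picked by a rule on gene symbols: the J-domain genes DNAJA, DNAJB and DNAJC, the HSP70 genes (HSPA), HSPH1, the HSP90 genes with their pseudogenes, HSPD1 and HSPE1, the small heat shock genes (HSPB), the CCT genes and BAG1 to BAG6. Of 18417 genes with a probe of their own, 91 met this rule, and 12 of the 91 are annotated as pseudogenes. The rule itself uses no expression value. The rule symbols DNAJC25, HSPA1A, HSPA1B, HSPA7 and HSPB2 are not analysed here, since the probes that carry them carry several symbols. The 2 classic inducible HSP70 genes are among these.

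U373MG is an established human glioblastoma line, and all arrays are of this 1 line. In 3 separate experiments, cells were exposed for 24 hours to ET-770 at 4.83 nM, to ET-770-DR at 1.70 nM or to RM at 3.10 nM, each the concentration that the submitters give as the IC50 of that compound, and control cells received only the DMSO vehicle of the same experiment. ET-770 is ecteinascidin-770, ET-770-DR is a pyridinecarbonyl derivative of it, and RM is renieramycin M, all of them tetrahydroisoquinoline alkaloids. Each compound and each DMSO control is 1 array, so a change with a single compound has no replicate and no test. The experiments were run independently, with an array for each sample. The study determined the IC50 values with a treatment longer than the 24 hours of the arrays. The doses differ, so values for the compounds are set side by side and not compared.

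The values are log2 RMA signals from Human Gene 1.0 ST arrays, on which 1 unit is a 2-fold difference. The median signal over all genes was 7.92, 7.22 and 7.41 on the ET-770, ET-770-DR and RM arrays, against 7.98, 7.28 and 7.40 on their DMSO arrays. Olfactory receptor genes served as a gauge of background, and a gene was taken as above background where its signal passed the 95th percentile of 341 such genes on that array. By this measure 72 of the 91 genes were above background on all 6 arrays, 8 on some of them and 11 on 0. The glial and glioma markers GFAP, VIM, NES, S100B, SOX2, CD44 and SLC1A3 were above background on all 6 arrays, and the leukocyte, epithelial, endothelial and melanocyte markers PTPRC, EPCAM, PECAM1 and MLANA on 0. In bulk RNA, fewer cells and less RNA per cell cannot be told apart.

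Chaperones bind proteins that are not yet folded or have lost their fold. HSP70 proteins do so in cycles of ATP hydrolysis, in which a J-domain protein delivers the client and triggers hydrolysis, and a nucleotide exchange factor such as a BAG or HSP110 protein resets the cycle. HSP90 completes the folding of many kinases and receptors, the TRiC ring encoded by the CCT genes and TCP1 folds actin and tubulin, and the small heat shock proteins hold unfolded clients without ATP. Heat shock factor 1 drives the inducible members through heat shock elements, which are inverted repeats of the unit GAA, and the unfolded protein response of the endoplasmic reticulum (ER) drives HSPA5 and its partners through ER stress elements.

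To show these elements in the genes at hand, RefSeq promoter windows (GRCh38.p14, 250 bases before to 50 after each start) were searched on both strands for the heat shock pairs GAANNTTC and TTCNNGAA, for 3 units in a row (GAANNTTCNNGAA or TTCNNGAANNTTC, each of which contains an overlapping copy of both pairs) and for the ER stress element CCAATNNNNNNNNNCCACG, which contains a CCAAT box. A window was found for 72 of the 91 genes. The following 5 windows, the 250 bases before the start on the strand of the gene, are printed because they hold 3 units in a row (HSPA8, HSPA6 and DNAJB6) or belong to called genes with a pair (BAG2 and HSPB8). Capitals mark the heat shock matches.
HSPA8, chr11:123062137-123062386, minus strand: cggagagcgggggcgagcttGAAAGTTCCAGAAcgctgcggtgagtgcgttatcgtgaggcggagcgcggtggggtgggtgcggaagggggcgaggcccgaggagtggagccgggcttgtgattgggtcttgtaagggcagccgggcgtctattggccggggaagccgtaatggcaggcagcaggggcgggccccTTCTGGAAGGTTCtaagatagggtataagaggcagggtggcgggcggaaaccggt
HSPA6, chr1:161524290-161524539, plus strand: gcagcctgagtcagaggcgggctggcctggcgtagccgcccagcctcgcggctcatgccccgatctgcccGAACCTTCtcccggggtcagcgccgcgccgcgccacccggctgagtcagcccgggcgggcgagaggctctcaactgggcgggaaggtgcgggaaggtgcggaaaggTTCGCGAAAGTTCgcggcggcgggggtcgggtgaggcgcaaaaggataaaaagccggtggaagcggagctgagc
DNAJB6, chr7:157336754-157337003, plus strand: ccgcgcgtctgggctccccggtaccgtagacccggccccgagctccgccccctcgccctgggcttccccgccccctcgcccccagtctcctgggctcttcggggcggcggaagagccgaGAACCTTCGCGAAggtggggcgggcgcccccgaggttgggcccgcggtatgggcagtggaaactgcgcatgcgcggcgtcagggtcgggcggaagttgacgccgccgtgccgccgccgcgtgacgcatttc
BAG2, chr6:57172076-57172325, plus strand: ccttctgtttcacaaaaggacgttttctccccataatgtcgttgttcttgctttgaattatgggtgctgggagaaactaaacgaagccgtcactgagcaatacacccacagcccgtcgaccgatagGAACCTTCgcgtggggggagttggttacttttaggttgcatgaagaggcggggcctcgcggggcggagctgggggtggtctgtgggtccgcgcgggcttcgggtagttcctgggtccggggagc
HSPB8, chr12:119178681-119178930, plus strand: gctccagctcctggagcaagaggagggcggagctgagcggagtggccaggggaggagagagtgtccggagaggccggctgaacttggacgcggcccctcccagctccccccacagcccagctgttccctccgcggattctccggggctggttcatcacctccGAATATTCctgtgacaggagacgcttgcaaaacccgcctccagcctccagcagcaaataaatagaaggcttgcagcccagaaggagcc
Both HSPA8 and HSPA6 hold 2 separate matches in this stretch. The run of 3 units was found in the windows of 4 of the 72 genes (5.56%), the fourth being DNAJA1 with its match just after the start, and in 0.407% of 14239 promoters. At least 1 pair was found in 15 of the 72 genes (20.8%), against 11.3% of all promoters.

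The ER stress element was found in 2 of the 72 genes, HSPA5 and HSP90B1, and in 0.119% of all promoters. Capitals mark it in the windows below, which are shown because both encode the main chaperones of the ER lumen, and the second match of HSP90B1 lies on the opposite strand.
HSPA5, chr9:125241344-125241593, minus strand: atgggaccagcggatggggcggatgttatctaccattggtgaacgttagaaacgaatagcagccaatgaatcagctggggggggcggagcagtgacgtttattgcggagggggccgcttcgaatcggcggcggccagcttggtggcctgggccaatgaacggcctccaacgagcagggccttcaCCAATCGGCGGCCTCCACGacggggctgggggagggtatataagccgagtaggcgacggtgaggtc
HSP90B1, chr12:103930160-103930409, plus strand: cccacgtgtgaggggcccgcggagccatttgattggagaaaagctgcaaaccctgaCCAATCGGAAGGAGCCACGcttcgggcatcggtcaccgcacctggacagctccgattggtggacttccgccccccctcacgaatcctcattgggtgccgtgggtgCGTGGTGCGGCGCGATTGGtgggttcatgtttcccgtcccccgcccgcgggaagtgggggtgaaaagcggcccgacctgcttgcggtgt
The CCAAT box alone was in 37.5% of the 72 windows and in 36.3% of all promoters. A match is a description of the letters and does not show that a factor binds there.

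The first comparison asks which chaperone genes moved the same way with the 3 compounds. A limma fit across the 18417 genes, paired by experiment, treated the 3 compounds as replicates of one another, and a gene is called where its Benjamini-Hochberg adjusted p was under 0.05. Of the 91 genes, 16 rose (17.6%, against 13.1% of all genes) and 5 fell (5.49%, against 11.2% of all genes), and 70 were not called. Called in either direction were 23.1% of the 91 and 24.3% of all genes. At an unadjusted p under 0.05, 28 of the 91 were higher and 9 lower, and the same count over all genes was not taken. Without the pairing of arrays by experiment 0 of the 91 were called (3 higher and 3 lower at an unadjusted p under 0.05). That fit called 0.141% of all genes higher and 2% lower, so calls in general rest on the difference within pairs. The median of the mean log2 change was 0.15 over the 91 genes and 0.03 over all genes. By compound, the median over the 91 genes was 0.11 in the ET-770 experiment, 0.30 in the ET-770-DR experiment and 0.13 in the RM experiment, beside 0.02, -0.03 and 0.12 over all genes. With RM the chaperones thus sat next to the median of all genes.

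The called changes were small for most members. A called rise of more than 2-fold was seen in DNAJB9 and BAG2 alone (2 of 91, against 1.48% of all genes), and a called fall of more than 2-fold in DNAJC1 alone (1 of 91, against 4.38% of all genes). Of the 91 genes, 45 were higher than their DMSO array with all 3 compounds (49.5%, against 29.6% of all genes) and 13 were lower with all 3 (14.3%, against 20.6%). After quantile normalization of the 6 arrays these shares were 54.9% against 32.4% for higher and 14.3% against 21.6% for lower. The 11 genes that were not above background on any array, among them DNAJB13, DNAJC15, HSPA1L and HSPB7, held 0 of the calls (1 at an unadjusted p under 0.05, DNAJC15).

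**Figure D1:**
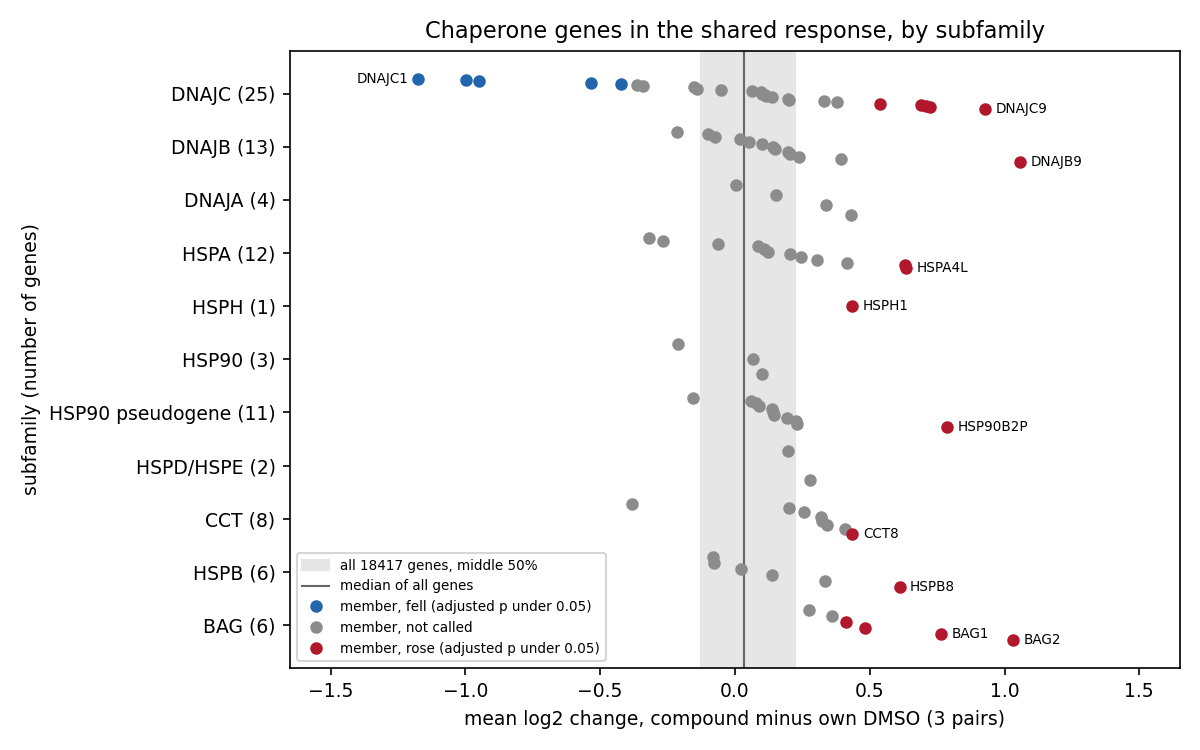
Mean log2 change (compound minus own DMSO, 3 pairs) of each of the 91 genes, one row per subfamily, with red for the 16 that rose, blue for the 5 that fell and grey for the 70 not called. All 5 falls lie in the DNAJC row, and every BAG gene lies to the right of the median of all 18417 genes (vertical line, with the grey band for the middle 50% of genes).

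At the level of 1 compound, 0 of the 91 genes passed the 3-fold limit of the study in either direction. Over all genes, the shares more than 3-fold higher and lower were 0.233% and 2.15% for ET-770, 0.51% and 2.12% for ET-770-DR, and 0.0434% and 1.36% for RM. At 2-fold, BAG2 was the 1 member higher with ET-770 (against 2.01% of all genes), BAG1, BAG2, DNAJB9, DNAJC2 and DNAJC9 were the 5 higher under ET-770-DR (3.84%), and HSP90B2P was the 1 higher under RM (0.668%). Lower by more than 2-fold were DNAJC1 under ET-770 (against 4.68%), DNAJC1, DNAJC3 and DNAJC13 under ET-770-DR (4.94%), and DNAJC1 and DNAJC3 under RM (4.28%). At 1.5-fold, 8, 17 and 11 members were higher with ET-770, ET-770-DR and RM, against 8.32%, 12.2% and 6.21% of all genes, and 3, 3 and 5 were lower, against 8.56%, 10.4% and 9.64%.

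All of the falls were in J-domain genes of the DNAJC class, whose members share the J domain and little else. Of 25 DNAJC genes, 5 rose (against 13.1% of all genes), 5 fell (against 11.2%) and 15 were not called. Their median change was 0.10. DNAJC1, an ER membrane J-protein that recruits HSPA5, had signals of 8.46, 8.50 and 7.94 with ET-770, ET-770-DR and RM, against 9.65, 9.61 and 9.17 on the DMSO arrays. Every compound array lay below every DMSO array, and the change was almost the same with each compound. DNAJC1 fell by 1.17 on the log2 scale (SD 0.059 over 3 pairs, limma SE 0.12, adjusted p = 0.00014).

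DNAJC3 encodes p58IPK, an ER-lumen co-chaperone of HSPA5 that also inhibits the kinase PERK. Its signals were 8.31, 7.97 and 8.90 with ET-770, ET-770-DR and RM, against 9.26, 9.0 and 9.91 with DMSO. The arrays of the groups did not overlap, though the RM array and the DMSO array of ET-770-DR lay close together. The folds were 0.517, 0.487 and 0.499 with ET-770, ET-770-DR and RM (mean log2 change -0.998, SD 0.043, limma SE 0.119, adjusted p = 0.00033).

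DNAJC13, the endosomal J-protein RME-8, had signals of 9.51, 8.55 and 8.55 with the compounds in the same order, against 10.44, 9.59 and 9.44 with DMSO. Each pair differed by close to 1 unit, while the ET-770 array lay above the DMSO array of RM. DNAJC13 fell by 0.95 on the log2 scale (SD 0.077, limma adjusted p = 0.00045). DNAJC11, a mitochondrial membrane protein of the MICOS assembly, gave folds of 0.682, 0.790 and 0.610 (mean log2 change -0.54, adjusted p = 0.014), and DNAJC10, the ER disulfide reductase ERdj5, folds of 0.797, 0.713 and 0.730 (mean -0.42, adjusted p = 0.030). Without the ET-770 experiment neither DNAJC10 nor DNAJC11 was called, and without the ET-770-DR experiment DNAJC10 was not called.

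**Figure D2:**
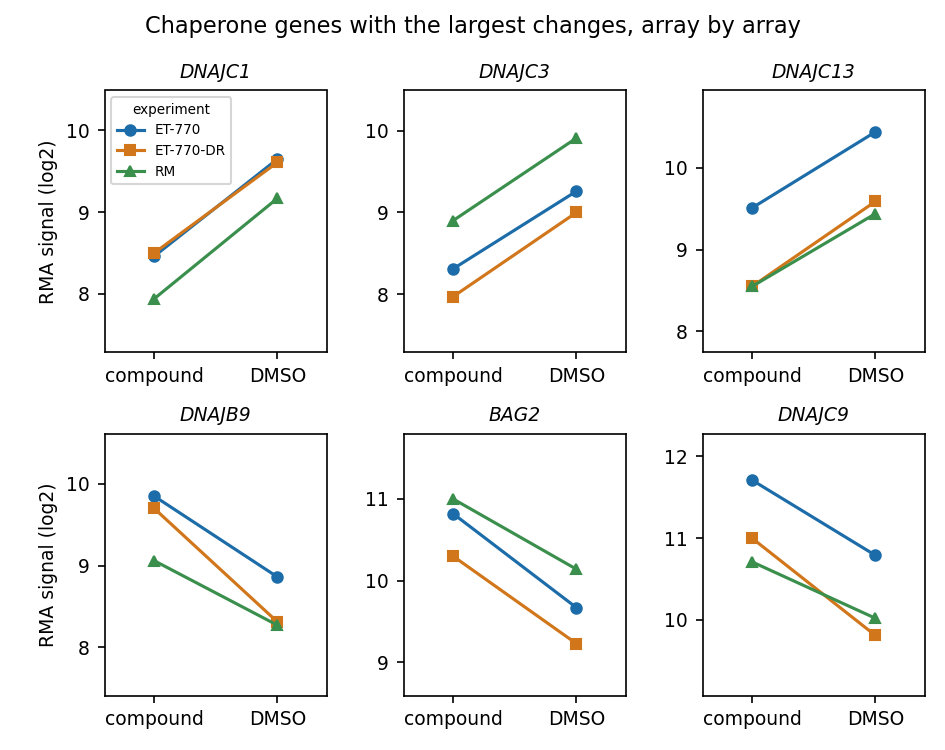
RMA signal (log2) on each array for the 3 largest falls and the 3 largest rises, with the compound array on the left, its own DMSO array on the right and a line for each experiment. For DNAJC1, DNAJC3, DNAJB9 and BAG2 the compound arrays do not overlap the DMSO arrays, and for DNAJC13 and DNAJC9 they do.

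The highest rise of the 91 genes was in another J-protein of the ER lumen. DNAJB9, or ERdj4, holds the stress sensor IRE1 in check and takes part in ER-associated degradation. Its signals were 9.85, 9.70 and 9.06 with ET-770, ET-770-DR and RM, against 8.86, 8.31 and 8.27 with DMSO. All compound arrays lay above all DMSO arrays, with folds of 1.99, 2.62 and 1.73 (mean log2 change 1.06, SD 0.304, limma SE 0.144, adjusted p = 0.00067). DNAJB9 was the 1 call among 13 DNAJB genes, whose median change was 0.14, against 24.3% of all genes called in either direction. Of the 4 DNAJA genes 0 were called (DNAJA1 and DNAJA2 had an unadjusted p under 0.05, both higher).

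DNAJC9, a J-protein that is also a chaperone of histones H3 and H4, had signals of 11.71, 11.00 and 10.71 with the compounds, against 10.79, 9.81 and 10.02 with DMSO. Every pair was higher with the compound, although the RM array lay below the DMSO array of ET-770, and the mean change was 0.93 (SD 0.252, limma adjusted p = 0.0010). DNAJC2, the J-protein of the ribosome-associated complex, had folds of 1.58, 2.00 and 1.42 with ET-770, ET-770-DR and RM (mean 0.72, adjusted p = 0.0040). Its partner in that complex, the HSP70 protein HSPA14, had folds of 1.49, 1.81 and 1.38 (mean 0.63, adjusted p = 0.0065). Both proteins of this complex, which receives nascent chains, thus had transcripts that were higher on every compound array than on its DMSO array. Of the remaining DNAJC rises, DNAJC12, a cofactor of aromatic amino acid hydroxylases, had a mean change of 0.71 (adjusted p = 0.0051), DNAJC22 one of 0.69 (0.0031) and DNAJC27, a Rab-like GTPase with a J domain, one of 0.54 (0.011). The calls of DNAJC12 and DNAJC22 were lost without the ET-770 experiment, and that of DNAJC27 without either the ET-770 or the ET-770-DR experiment.

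**Figure D3:**
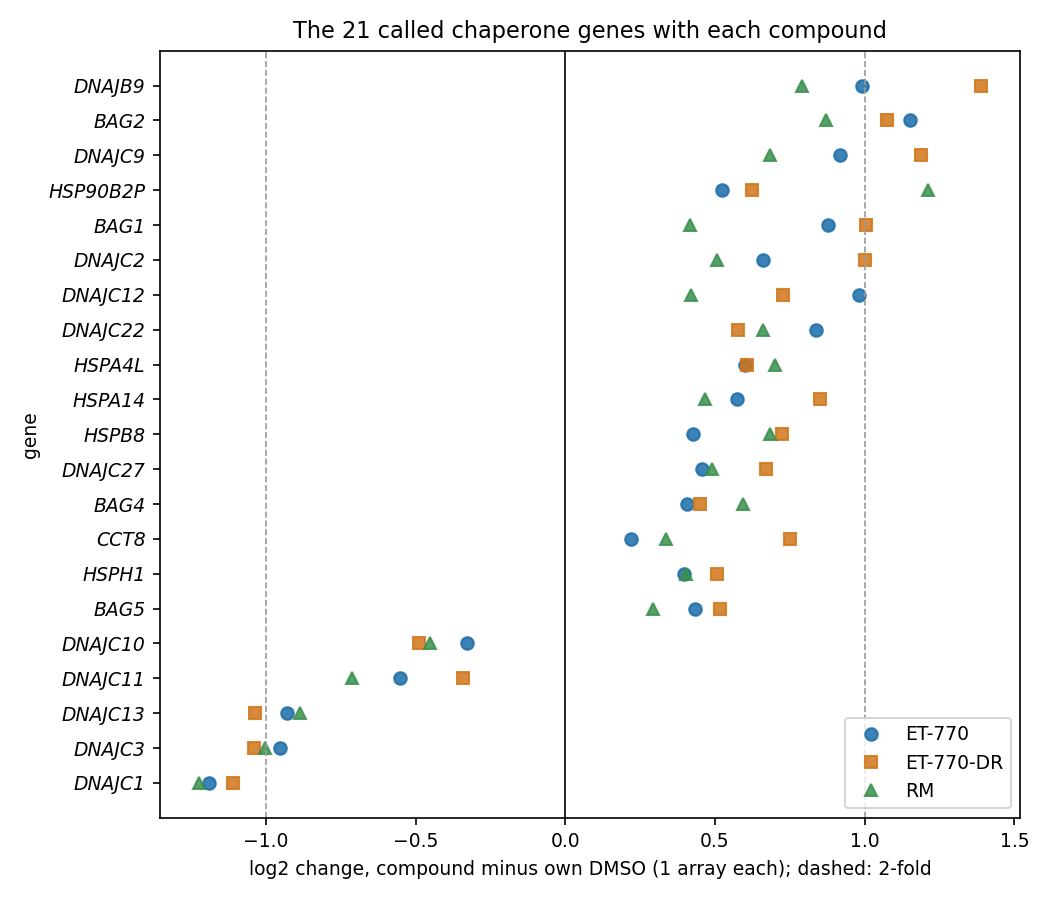
Log2 change with each compound (1 array against its own DMSO array) for the 21 called genes, ordered by their mean, with dashed lines at 2-fold. Each called gene has the same sign with the 3 compounds, and the 3 points lie closest together for DNAJC3, HSPA4L, DNAJC1 and HSPH1 (SD 0.043 to 0.063).

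Of the 6 BAG genes, which encode exchange factors and other partners of HSP70, 4 rose, against 13.1% of all genes, and 2 were not called, with a median change of 0.45. All 6 had signals above their DMSO array with every compound, also after quantile normalization and after median centring. Over all genes this held for 29.6% as deposited, 32.4% after quantile normalization and 33.6% after median centring. BAG2, which binds HSP70 and inhibits the ubiquitin ligase CHIP, had signals of 10.82, 10.30 and 11.00 with ET-770, ET-770-DR and RM, against 9.67, 9.23 and 10.14 with DMSO. The compound arrays all lay above the DMSO arrays, with folds of 2.22, 2.11 and 1.83 (mean 1.03, SD 0.146, limma adjusted p = 0.00036). BAG1, which links HSP70 to the proteasome, had signals of 9.08, 8.58 and 8.35, against 8.21, 7.58 and 7.93 with DMSO. Its folds were 1.84, 2.00 and 1.34 (mean 0.77, SD 0.309, adjusted p = 0.0040). BAG4, a silencer of death receptors (mean 0.48, adjusted p = 0.017), and BAG5 (0.41, adjusted p = 0.035) were the other called genes and are named because they complete this count, chosen after their values were seen. BAG3, the heat shock factor target that carries HSPB8 clients to autophagy, had a mean change of 0.36 (adjusted p = 0.071), and BAG6, which guards membrane proteins in the cytosol, one of 0.28 (adjusted p = 0.14). BAG3 was called after median centring, with the background filter and with an intensity trend (adjusted p of 0.047, 0.049 and 0.021). Without the ET-770 experiment the calls of BAG4 and BAG5 were lost, and without the ET-770-DR experiment that of BAG5.

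The HSP110 proteins serve as exchange factors too. HSPA4L had signals of 11.45, 11.44 and 10.21 with ET-770, ET-770-DR and RM, against 10.85, 10.83 and 9.51 with DMSO. The folds of 1.52, 1.52 and 1.63 were nearly equal (mean 0.64, SD 0.057, limma adjusted p = 0.0040), while both arrays of the RM experiment lay below the other 4. HSPH1, which encodes HSP105, had signals of 11.79, 11.25 and 12.28, against 11.39, 10.75 and 11.88 with DMSO (mean 0.44, SD 0.063, adjusted p = 0.026, not called without either the ET-770 or the ET-770-DR experiment). HSPA4, the third HSP110 gene, had a mean change of 0.12 (adjusted p = 0.62), with values of 0.05, 0.35 and -0.03 for the compounds.

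Of 12 HSPA genes, HSPA14 and HSPA4L rose, a share near the 13.1% of all genes, and 10 were not called, with a median change of 0.16. HSPA8, the constitutive cytosolic HSC70, had signals of 13.75, 13.61 and 14.00 with ET-770, ET-770-DR and RM, against 13.80, 13.69 and 14.06 with DMSO. These pairs differed by less than 0.08 units each (mean -0.06, SD 0.012, limma adjusted p = 0.82), and the sign of the mean turned after quantile normalization. HSPA9, the mitochondrial mortalin, had a mean change of 0.25 (adjusted p = 0.20, or 0.027 with an intensity trend), and HSPA13, an HSP70 relative of the microsomes, one of 0.31 (adjusted p = 0.11). HSPA6, which is silent in most unstressed cells and has heat shock elements in the window printed above, had signals of 7.19, 6.67 and 6.65 with the compounds, against 7.04, 6.5 and 5.72 with DMSO. The DMSO array of RM was the 1 array on which HSPA6 was not above background, and the fold was 1.90 in that experiment beside 1.11 and 1.13 with ET-770 and ET-770-DR (mean 0.42, SD 0.441, adjusted p = 0.11).

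The 3 HSP90 genes were not called either, and 0 of them had an unadjusted p under 0.05. HSP90AA1, the inducible cytosolic form, had signals of 12.92, 12.43 and 13.25 with ET-770, ET-770-DR and RM, against 12.95, 12.26 and 13.19 with DMSO (mean 0.07, adjusted p = 0.81). HSP90AB1, the constitutive form, had 13.09, 12.82 and 13.38, against 13.03, 12.65 and 13.30 with DMSO (mean 0.10, adjusted p = 0.67). Each difference was under 0.2 units. Among 11 HSP90 pseudogenes, 1 was called, HSP90B2P, against 24.3% of all genes in either direction. HSP90B2P had signals of 6.69, 6.56 and 6.89 with the compounds, against 6.17, 5.93 and 5.68 with DMSO (mean 0.79, SD 0.371, limma adjusted p = 0.0049). It was above background on 3 of the 6 arrays, all of them compound arrays, and its probe may share sequence with HSP90B1, which makes this value uncertain. HSP90B1 itself had a mean change of the opposite sign.

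**Figure D4:**
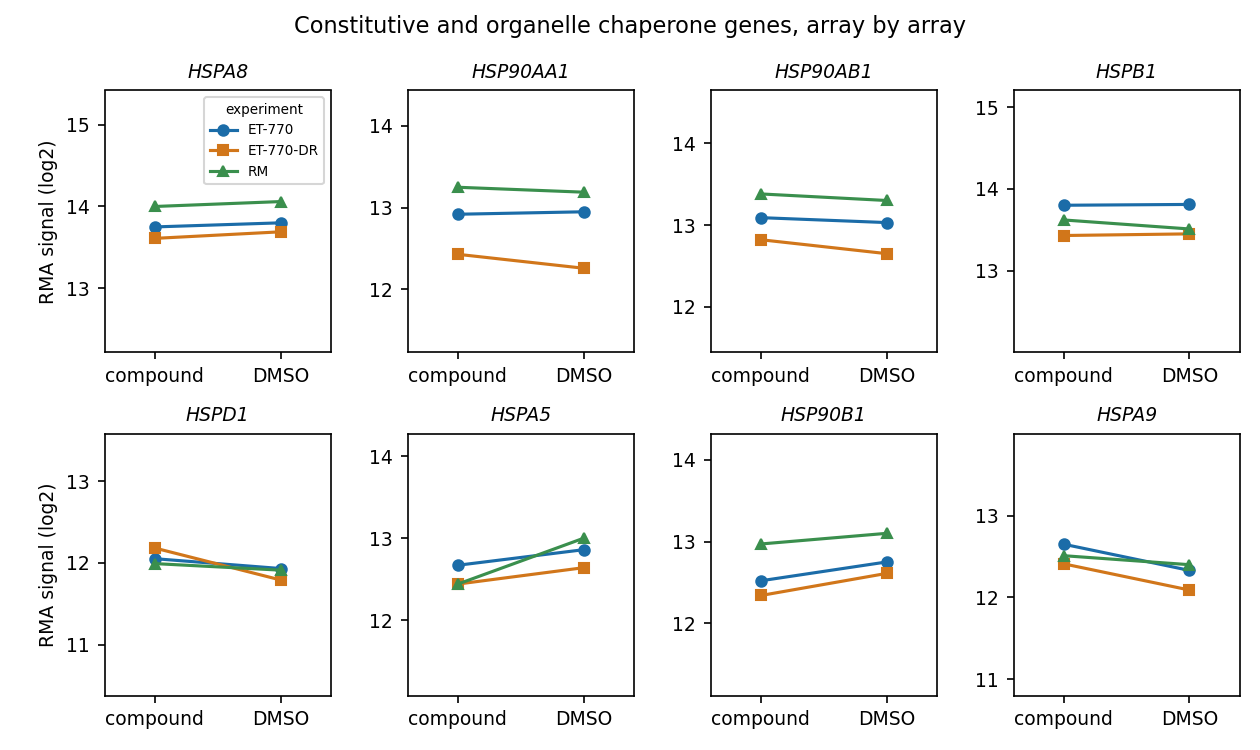
RMA signal (log2) on each array for 8 chaperone genes of the cytosol, mitochondrion and ER, with the compound array on the left, its own DMSO array on the right and a line for each experiment; every panel spans the same number of log2 units. None of the 8 was called in the paired fit without an intensity trend, and the steepest line is that of HSPA5 in the RM experiment (-0.56).

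In the ER lumen the chaperones and their J-protein partners had values of both signs. HSPA5, the ER HSP70 known as BiP, had signals of 12.67, 12.44 and 12.44 with ET-770, ET-770-DR and RM, against 12.86, 12.64 and 13.00 with DMSO. It was lower on each compound array, most in the RM experiment with a fold of 0.678, and was not called (mean -0.32, SD 0.209, limma adjusted p = 0.12). HSP90B1, the ER HSP90 known as GRP94, had 12.52, 12.34 and 12.97, against 12.75, 12.61 and 13.10 with DMSO (mean -0.21, SD 0.075, adjusted p = 0.27). These are the 2 genes with the ER stress element printed above, and neither passed the test after adjustment, HSPA5 alone being under 0.05 before it. With an intensity trend in the limma fit both were called lower, HSPA5 with an adjusted p of 0.011 and HSP90B1 with one of 0.036. Of their J-proteins, DNAJC1, DNAJC3 and DNAJC10 fell, DNAJB9 rose, and DNAJB11, or ERdj3, had a mean change of -0.10 (adjusted p = 0.69). SIL1, an exchange factor of HSPA5, lies outside the symbol rule and fell by 0.72 on the log2 scale (adjusted p = 0.0022). HYOU1, another HSP70 cofactor outside the rule, had a mean change of -0.04 and was not called (adjusted p = 0.89).

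In the mitochondrial folding chamber, HSPD1 (HSP60) had a mean change of 0.20 (adjusted p = 0.34) and its lid HSPE1 (HSP10) one of 0.28 (adjusted p = 0.23), and neither was called, although HSPE1 was called without the RM experiment (adjusted p = 0.039). Their changes were 0.39 and 0.65 with ET-770-DR, and 0.08 for each gene with RM.

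Of the 8 CCT genes, 1 rose, against 13.1% of all genes, and 7 were not called, with a median change of 0.32. CCT2, CCT3, CCT4, CCT5, CCT6A, CCT7 and CCT8 each had signals above their DMSO array with all 3 compounds, with means of 0.20 to 0.44. This held after quantile normalization and after median centring. The shares over all genes were 29.6% as deposited, 32.4% after quantile normalization and 33.6% after median centring. CCT8, the theta subunit, was the call, with signals of 9.44, 8.88 and 10.37 with ET-770, ET-770-DR and RM, against 9.22, 8.13 and 10.03 with DMSO (mean 0.44, SD 0.279, limma adjusted p = 0.049). It is named for being the single call of its group, chosen after its values were seen, and the call was lost after quantile normalization, with the brightest probe per gene, and without either the ET-770 or the ET-770-DR experiment. CCT2 had a mean change of 0.41 (adjusted p = 0.070) and CCT5 one of 0.34 (adjusted p = 0.071), and both were called with an intensity trend (0.021 and 0.0059) and without the RM experiment (0.00093 and 0.029). TCP1, which encodes the alpha subunit and has no CCT symbol, had one of 0.17 (adjusted p = 0.40). CCT6B, a testis form of the zeta subunit, was above background on 1 array only and was lower on each compound array, with a mean change of -0.38 (adjusted p = 0.094).

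At most of the CCT genes, the DMSO array of the RM experiment had higher signals than the other DMSO arrays. After quantile normalization the median of the 8 CCT genes was 1.01 log2 units higher on the DMSO array of RM than on that of ET-770 and 1.11 higher than on that of ET-770-DR, where the normalization itself holds the median of all genes near 0. The array was unlike the others at many genes, with 1218 genes more than 2-fold higher and 1021 more than 2-fold lower than on the DMSO array of ET-770. The HSP90 pseudogenes (medians of 0.81 and 1.06 above the DMSO arrays of ET-770 and ET-770-DR) and HSPH1 (0.92 and 0.91) differed by about as much as the CCT genes. Probes of these pseudogenes may share sequence with the HSP90 genes, which was not tested. Medians of the HSPA genes were -0.01 and 0.08, and those of the HSPB genes -0.21 and -0.025, against the same arrays. The widest spread over the 3 DMSO arrays was 1.73 for CCT2 and 1.67 for CCT8, and that of CCT5 was 0.39. Outside this group HSPA4L spread by 1.52 and HSPA13 by 1.45. Each control is 1 array of its own experiment, and what differed between the experiments was not tested.

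**Figure D5:**
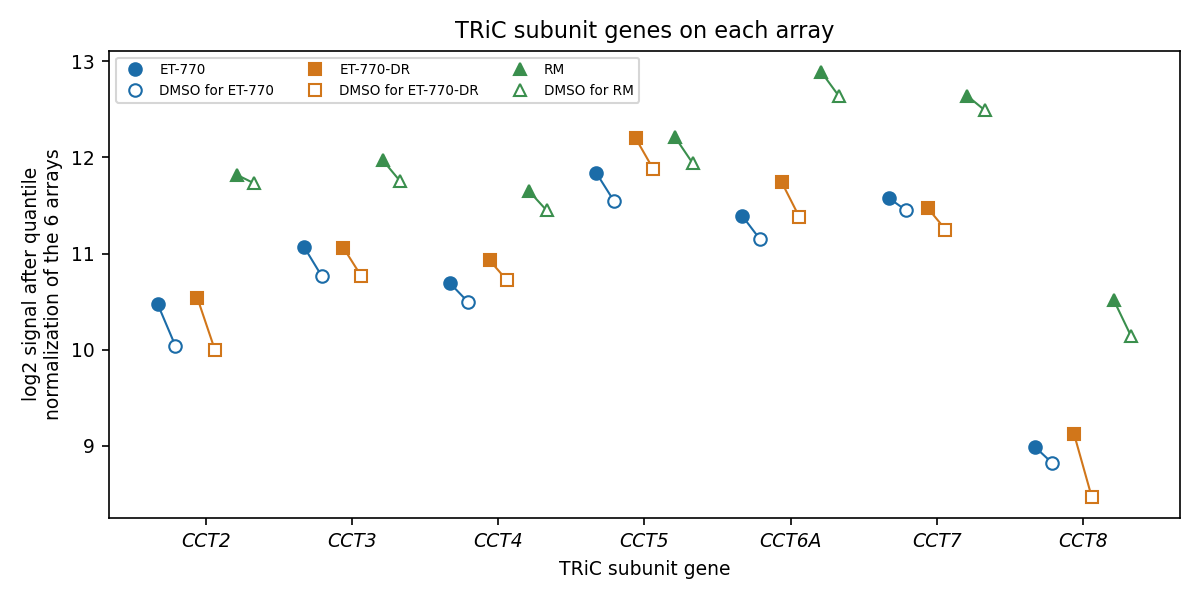
Log2 signal after quantile normalization of 7 TRiC subunit genes on each array, with filled symbols for a compound array and open symbols for its DMSO array, joined by a line. The compound symbol lies above its DMSO symbol in every pair, and for each gene but CCT5 both arrays of the RM experiment lie above the other 4.

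Of the 6 small heat shock genes, HSPB8 rose, against 13.1% of all genes, and 5 were not called. HSPB8, which works with BAG3 in chaperone-assisted autophagy and has a heat shock pair in the window printed above, had signals of 11.35, 10.38 and 10.93 with ET-770, ET-770-DR and RM, against 10.92, 9.65 and 10.24 with DMSO. Each pair was higher with the compound and the arrays of the groups overlapped (mean 0.61, SD 0.162, limma adjusted p = 0.0064). HSPB1, or HSP27, had 13.80, 13.43 and 13.62, against 13.81, 13.45 and 13.51 with DMSO (mean 0.02, SD 0.070, adjusted p = 0.94). HSPB6, or HSP20, had changes of 0.24, 0.02 and 0.74 (mean 0.33, adjusted p = 0.17).

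The promoter search was then read against the calls. Of the 15 genes with at least 1 heat shock pair, BAG2 and HSPB8 rose, a share close to the 13.1% of all genes. Of the rest 0 fell and 13 were not called, and the median change of the 15 was 0.20. Among those not called, DNAJB7, DNAJC15, HSPA1L and HSPB3 were above background on 0 arrays and CCT6B on 1. A window was found for 12 of the 16 genes that rose. The search took exact letters only and found no pair in the windows of DNAJB1 and HSP90AA1. The 4 genes with 3 units in a row had mean changes of 0.34 for DNAJA1 (adjusted p = 0.077, or 0.031 with an intensity trend and 0.032 without the RM experiment), 0.02 for DNAJB6 (0.96), 0.42 for HSPA6 (0.11) and -0.06 for HSPA8 (0.82), so that 0 were called, DNAJA1 and HSPA6 being under 0.05 before adjustment. DNAJA1 and DNAJB1 are the main J-proteins of the cytosol. DNAJB1, the J-protein most used as a sign of the heat shock response, had signals of 11.85, 11.19 and 12.26 with the compounds, against 11.83, 11.15 and 11.88 with DMSO. It differed by 0.02 and 0.04 with ET-770 and ET-770-DR and by 0.38 with RM (mean 0.15, SD 0.205, adjusted p = 0.53).

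Genes that act with the chaperones but have other symbols were examined in lists of 87 symbols, of which 76 were measured. Of these 76, 13 rose, against 13.1% of all genes, 6 fell, against 11.2%, and 57 were not called, with a median change of 0.16. For each list below the shares over all genes are these same 13.1% higher and 11.2% lower. The list of heat shock factors held HSF1, HSF4 and HSF5 with the factor-binding genes HSBP1 and HSF2BP, and 0 of these 5 were called (HSF1 and HSBP1 had an unadjusted p under 0.05, both higher). HSF1, the main factor, had a mean change of 0.28 (SD 0.097, adjusted p = 0.14). HSF2 is not analysed here.

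Of 22 HSP90 co-chaperones, 6 rose and 1 fell. The largest changes were those of CDC37L1, a relative of the kinase adaptor CDC37 (mean 0.90, limma adjusted p = 0.00097), and CHORDC1, or morgana (0.85, adjusted p = 0.0028). CHORDC1 had signals of 10.10, 9.31 and 10.62 with ET-770, ET-770-DR and RM, against 9.54, 8.08 and 9.86 with DMSO. Of 8 further HSP70 cofactors 2 rose and 1 fell, led by GRPEL2, a mitochondrial exchange factor (0.86, adjusted p = 0.0011), and by SIL1. Of 8 crystallins and TRiC relatives 0 were called (2 higher at an unadjusted p under 0.05).

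Of 8 genes of prefoldin, which hands actin and tubulin to TRiC, and of its relatives, 2 rose and 1 fell. PDRG1 had signals of 10.05, 9.74 and 9.03 with ET-770, ET-770-DR and RM, against 8.77, 8.29 and 8.08 with DMSO (mean 1.23, adjusted p = 0.00023), and URI1 fell by 0.58 (adjusted p = 0.010). Of 9 mitochondrial chaperones and proteases 2 rose and 1 fell. CLPB, the mitochondrial disaggregase, had signals of 8.36, 7.95 and 8.38 with the compounds, against 9.64, 9.08 and 9.50 with DMSO. The compound and DMSO arrays did not overlap, and CLPB fell by 1.18 (SD 0.089, adjusted p = 0.00014). HTRA2, a protease of the intermembrane space, rose by 0.48 (adjusted p = 0.023).

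Of 16 ER folding genes, 1 rose, 2 fell and 13 were not called, with a median change of -0.10. ATF6, the ER membrane sensor that drives ER stress elements once cleaved, had signals of 9.87, 9.85 and 9.93 with ET-770, ET-770-DR and RM, against 11.62, 11.36 and 10.95 with DMSO. All compound arrays lay at least 1 unit below all DMSO arrays, and ATF6 fell by 1.43 (SD 0.370, limma adjusted p = 0.00019). DDIT3, or CHOP, a transcription factor induced under ER stress, had signals of 11.59, 10.83 and 10.28, against 9.96, 9.70 and 9.39 with DMSO. Every compound array again lay apart from every DMSO array, on the higher side, with a mean change of 1.22 (SD 0.376, adjusted p = 0.00047). ATF6 and DDIT3 thus differed from DMSO in opposite directions.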

How the data were processed

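The deposited values are log2 signals that the authors made by RMA (robust multiarray averaging) in Affymetrix Expression Console from Human Gene 1.0 ST arrays. They are brightness on a log scale, so their depth is set by the number of arrays, 6, and levels of different genes are not compared. Of 33297 probes, the 19460 that GEO's platform annotation pairs with a single symbol were kept, and probes of a gene were averaged, which left 18417 genes. Whether RMA was run once over all arrays or once per experiment is not given in the sources used here.

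The symbol rule uses no expression value, but the members it covers and the partner lists were chosen with earlier results of these data known. Groups came from the labels. The test was limma 3.58.1 (R 4.3.3) with lmFit and eBayes, compound against DMSO with the experiment as a block, and Benjamini-Hochberg adjustment over 18417 genes at 0.05. The fit was run on simulated data with the same noise at every gene and equal shifts with the 3 compounds. That setting is simpler than the real arrays, so it does not show how reliable the calls are. The pairing comes from the labels, which give each DMSO array as the control for 1 compound. With 3 compounds as replicates, the error is taken from how the change from DMSO varied over the 3 pairs. Level differences between experiments are removed by the block. The eBayes step also uses the spread at all other genes, so p-values do not measure the spread at 1 gene alone. HSPA8 and DNAJC3 had SDs of 0.012 and 0.043 and both a limma SE of 0.119. HSPA6, with an SD of 0.441, had a limma SE of 0.167. Single compounds have 1 array each and were given as folds at 3, 2 and 1.5. Named were members past 3-fold, the 12 largest called rises, all called falls and a fixed set of textbook chaperones. The member with the highest mean signal of each subfamily was named too, and in each partner list the 2 largest called changes. Other members given with values, among them HSPA4, HSPA6, HSPA13, HSPB6, BAG4, BAG5, BAG6, CCT6B, CCT8, DNAJB6 and DNAJB11, fall outside these criteria. So do TCP1 and HYOU1 of the partner lists. The pairs were also analysed with quantile normalization, median centring, a background filter, the brightest probe per gene, an intensity trend, no block, the mean of the DMSO arrays as control, and each experiment left out. Sequences are from RefSeq (GRCh38.p14). The other assays of the study were not used.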

Additional observations from a re-analysis of the deposited data

Results flagged for a closer look

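DNAJA3, a mitochondrial J-protein known as Tid1, was picked out because its change ran in opposite directions with different compounds, each by at least 1.2-fold. Its log2 change was -0.297 with RM, where the signal was 9.11 against 9.41 with DMSO. It was 0.528 with ET-770-DR, where the signal was 9.90 against 9.37 with DMSO. With ET-770 it was 0.22, and the difference between compounds was not tested, since each has 1 pair. Changes of both signs over the 3 compounds were common, in 32 of the 91 members (35.2%) and in 49% of all genes.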

How the results depend on the processing

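Of the 33 named members none changed sign while called. The mean of HSPA8 turned to 0.01 after quantile normalization, and that of HSPB1 turned without the RM experiment, and neither gene was called in any of these. The paired fit gave 16 higher and 5 lower members, against 13.1% and 11.2% of all genes. Without the replicate block of experiment the limma fit gave 0 and 0, against 0.141% and 2% of all genes. At an unadjusted p under 0.05 it gave 3 higher and 3 lower, against 28 and 9 with the block. These unadjusted counts were not taken over all genes, so no share stands beside them. The fit with an intensity trend gave 25 higher and 7 lower, against 15.2% and 12.1% of all genes. Leaving out 1 experiment gave 9 to 26 higher and 3 to 6 lower. Over all genes these fits called 6.52% to 19% higher and 8.17% to 14.3% lower. Without ET-770 the counts were 9 and 3, all of them among the 16 and 5. Without ET-770-DR 12 of the 16 and 4 of the 5 were kept, and without RM all were kept. Quantile normalization gave 18 and 6 (13.8% and 11.9% of all genes), and median centring 20 and 5 (14.8% and 10.4%). The background filter gave 20 and 6 of 76 members tested (19.8% and 15.3% of the genes kept). The brightest probe gave 15 and 5 (13% and 11.2% of all genes). For single compounds 0 members passed 3-fold under any scaling, filter or control tried. At 2-fold, 1, 5 and 1 members were higher with ET-770, ET-770-DR and RM and 1, 3 and 2 lower, and at 1.5-fold 8, 17 and 11 were higher and 3, 3 and 5 lower. With 1 array per group, no change of a single compound could be set against replicate error, and 11 members had no signal above background.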
